A study of Mus musculus with 8 samples.

Results

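Nucleoporins, importins, exportins and the enzymes of the Ran cycle were compared between sorted CD24Mid and CD24Neg cells of the mouse small intestinal epithelium. The genes were taken by symbol: Nup followed by a digit, Kpna, Ipo, Xpo or Tnpo followed by a digit, and Kpnb1, Cse1l, Ran, Rangap1, Ranbp1, Rcc1, Tpr, Ndc1, Pom121, Aaas, Seh1l and Rae1. Of 54 identifiers with such a symbol, 51 were at 10 or more in 4 or more of the 8 libraries, and these 51 genes stand among 12906 genes that reached that level. Of the 51, 50 were at 10 or more in all 8 libraries, the exception being Nup210l. The 3 identifiers below the level were Kpna7, listed at 1.28 in CD24Mid library 3 and at 0 elsewhere, Nup62cl, listed at 1.09 and 3.46 in CD24Mid libraries 3 and 7 and at 0 elsewhere, and the pseudogene Kpna2-ps, at 5.42 or less in every library. Nup62, a nucleoporin of the central channel, was not analysed here.

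CD24 is a surface glycoprotein whose level separates epithelial fractions of the intestine. The series holds 4 libraries of CD24Mid cells (title numbers 1, 3, 5 and 7; the manuscript's name for them is CD24low) and 4 of CD24Neg cells (title numbers 2, 4, 6 and 8). In both fractions, cells positive for the leukocyte antigen CD45 or for the Ulex europaeus lectin had been depleted by sorting, and the design text describes 4 biological replicates for each cell type. The study it belongs to concerns 5-hydroxymethylcytosine and gene activity in intestinal differentiation. No genotype, treatment, strain or age is given in the labels used here.

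The nuclear pore complex is the channel through the nuclear envelope, built from copies of many nucleoporins arranged as outer rings, an inner ring, membrane anchors, a channel lined with disordered phenylalanine-glycine repeats, cytoplasmic filaments and a nuclear basket. Importins bind cargo in the cytoplasm and release it where Ran is bound to GTP, inside the nucleus, and exportins bind their cargo together with Ran-GTP and release it outside. In the intestine, dividing cells of the crypt, which take their envelope and pores apart and rebuild them at each mitosis, give rise to differentiated cells of the villus that no longer divide.

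The 2 fractions were far apart as whole transcriptomes. At an adjusted p under 0.05, by limma with Benjamini-Hochberg adjustment over all tested genes, 68.3% of the 12906 genes were called in either direction, 34.3% as higher and 34.0% as lower in CD24Mid. The CD24Mid libraries had an estimated 17.5 to 19.6 M reads and the CD24Neg libraries 12.5 to 20.7 M reads. Mitochondrially encoded genes held 8.03 to 9.10% of the value in CD24Mid, against 28.3 to 37.4% in CD24Neg. Cd24a, which encodes the sorted antigen, had 2246 to 3693 in CD24Mid, against 287 to 563 in CD24Neg. All 7 crypt and proliferation markers were called higher in CD24Mid, at a summed 0.506 to 0.746% of the nuclear-gene value in CD24Mid and 0.0222 to 0.0581% in CD24Neg. All 8 markers of absorptive enterocytes were called lower, at 0.178 to 0.263% in CD24Mid, against 2.75 to 4.55% in CD24Neg, as were all 5 goblet markers, at 0.451 to 0.671% in CD24Mid, against 1.16 to 3.34% in CD24Neg. Of 5 enteroendocrine markers 4 were called higher (0.0301 to 0.0717% in CD24Mid, 0.00567 to 0.00792% in CD24Neg), and of 5 plasma cell markers found 4 were called higher and 1 lower (0.0881 to 0.174% in CD24Mid, 0.0293 to 0.0389% in CD24Neg). Of 8 lymphocyte markers 7 were called lower, with 0.00111 to 0.00289% in CD24Mid, against 0.00321 to 0.0555% in CD24Neg, and CD24Neg libraries 2 and 8 held the most, 0.0555% and 0.0446%. Paneth, tuft and stromal markers summed to at most 0.0308% in any library, and Pou2f3, Col1a1, Col1a2 and Col3a1 were at 0 in at least 1 library. Of 5 Paneth markers 1 was called higher (Mmp7), and of 5 stromal markers 1 was called higher (Vim). Of 4 tuft markers 1 was called higher (Pou2f3) and 1 lower (Ltc4s). In such bulk samples, fewer cells of a type and less RNA per cell cannot be told apart, and the part that cell makeup has in the values that follow was not tested.

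Of the 51 genes, 43 (84.3%) were called higher in CD24Mid, against 34.3% of all tested genes, and 0 were called lower, against 34.0% of all tested genes. Of the 51 genes, 31 (60.8%) were called with an estimated fold change above 2, against 19.9% of all tested genes called higher by more than 2-fold. All 4 CD24Mid libraries lay above all 4 CD24Neg libraries for 43 of the 51 genes (84.3%), against 32.1% of all tested genes. The median log2 fold change, CD24Mid minus CD24Neg, was 1.21 over the 51 genes and 0.02 over all tested genes. The 8 genes that were not called were Tpr, Nup210l, Kpna1, Kpna4, Kpna6, Ipo8, Ipo13 and Xpo6.

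How many genes count as higher depended on the scaling of the libraries. When libraries were scaled to their nuclear-gene totals, the median of all genes moved to 0.48. The share of calls that were higher in CD24Mid moved to 71.1%, against 50.2% with the median-ratio centring. Under the nuclear-gene scaling 50 of the 51 genes were called higher, against 51.9% of all tested genes. Under both scalings, 48 of the 51 genes lay above the median of all genes. The limma p-values set the difference between the fractions against the spread of these libraries within a fraction.

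**Figure D1:**
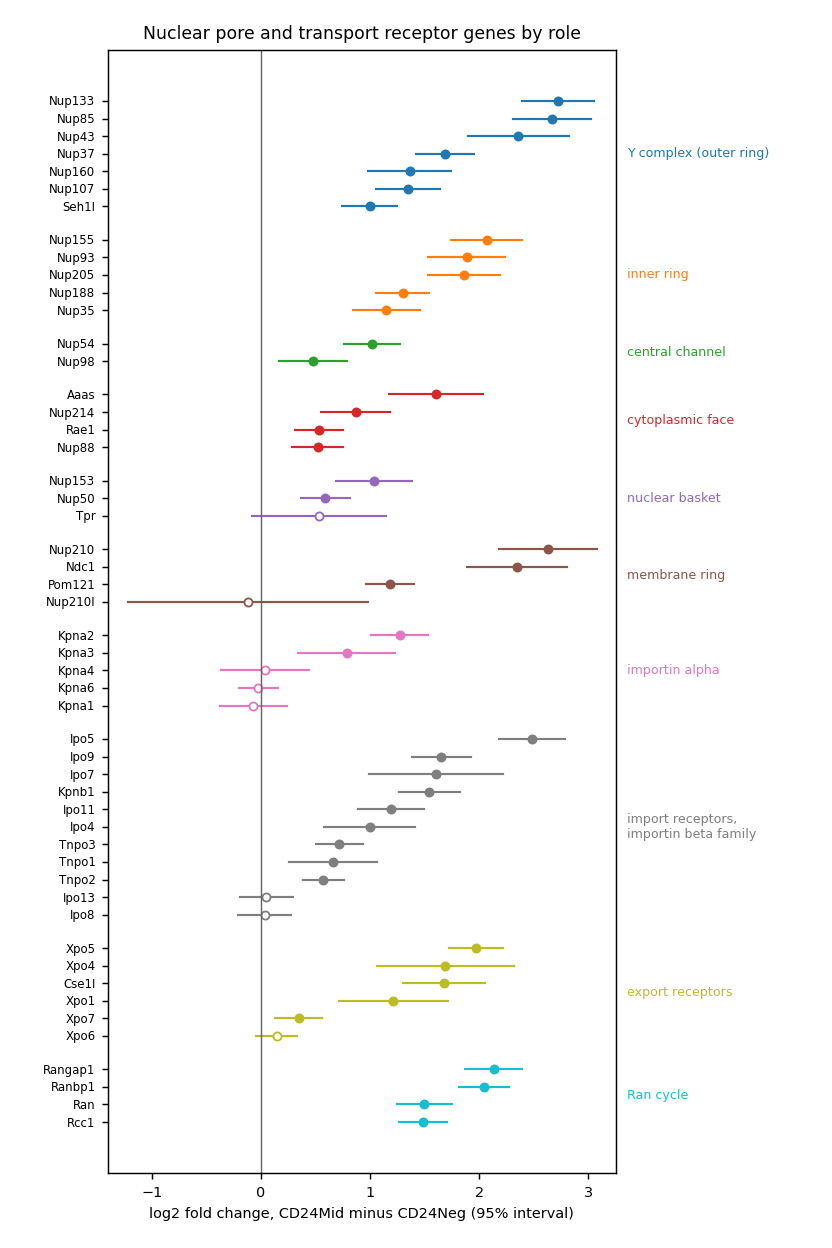
Log2 fold change (CD24Mid minus CD24Neg, horizontal axis) of the 51 genes with its 95% interval, grouped by role; filled points are called at an adjusted p under 0.05 (limma) and open points are not. The largest estimates are those of Nup133 (2.72), Nup85 (2.67) and Nup210 (2.63), and the open points include 3 of the 5 importin alpha genes.

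The 4 genes of the Ran cycle were all called higher in CD24Mid, against 34.3% of all tested genes. Their median log2 fold change was 1.77. Ran is the small GTPase whose nucleotide state gives transport its direction. Its value was 3482, 3786, 3206 and 3529 in the CD24Mid libraries 1, 3, 5 and 7, against 1411, 1325, 1044 and 1208 in the CD24Neg libraries 2, 4, 6 and 8. The lowest CD24Mid library was more than double the highest CD24Neg library, and the log2 fold change was 1.5 (SE 0.11, adjusted p = 1.87e-06 by limma). Rangap1, which makes Ran hydrolyse GTP at the cytoplasmic face of the pore, had 2391, 2963, 2524 and 2716 in CD24Mid, against 560.1, 674, 521 and 669 in CD24Neg. Ranbp1, which helps Rangap1 strip Ran-GTP from transport receptors, had 1925, 2062, 1731 and 1859.6 in CD24Mid, against 432, 488, 413 and 507 in CD24Neg. For both genes the groups were widely separated, with log2 fold changes of 2.13 for Rangap1 (SE 0.12, adjusted p = 3.74e-07, limma) and 2.04 for Ranbp1 (SE 0.10, adjusted p = 2.74e-07, limma). Rcc1, the chromatin-bound exchange factor that loads Ran with GTP, averaged 1142 ± 74.3 in CD24Mid and 408 ± 39.5 in CD24Neg (SD, n = 4 each; log2 fold change 1.49).

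The promoters of Ran and Ranbp1 are shown because both genes moved strongly and hold different motifs. Each run is the 250 bases before the RefSeq start on GRCm38.p6, Ran at chr5:129019906-129020155 on the plus strand and Ranbp1 at chr16:18248695-18248944 on the minus strand, and capitals mark matches on either strand to the E-box CACGTG, the E2F types TTTGGCG and also TTTCCCGC, the box CCAAT, and the NRF1 type GCGCATGCG.
Ran: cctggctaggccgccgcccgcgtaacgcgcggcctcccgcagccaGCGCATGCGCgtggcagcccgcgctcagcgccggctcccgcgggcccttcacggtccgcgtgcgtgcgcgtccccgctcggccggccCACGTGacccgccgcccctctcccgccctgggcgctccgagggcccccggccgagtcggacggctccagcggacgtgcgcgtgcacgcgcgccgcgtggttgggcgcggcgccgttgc
Ranbp1: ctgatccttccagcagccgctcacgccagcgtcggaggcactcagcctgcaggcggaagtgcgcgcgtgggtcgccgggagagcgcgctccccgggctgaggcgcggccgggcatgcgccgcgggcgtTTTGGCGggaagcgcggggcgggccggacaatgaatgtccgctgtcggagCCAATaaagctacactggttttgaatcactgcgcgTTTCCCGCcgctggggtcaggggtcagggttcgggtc
In the Ran promoter the capitals are a GCGCATGCG match that overlaps itself on the other strand and a CACGTG. In the Ranbp1 promoter they are TTTGGCG first, then CCAAT, then TTTCCCGC. These are matches of letters, not measured binding. The promoters of Rangap1 and Rcc1, and that of Nup133, which had the largest estimate of the 51 genes, hold none of these motifs.

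**Figure D2:**
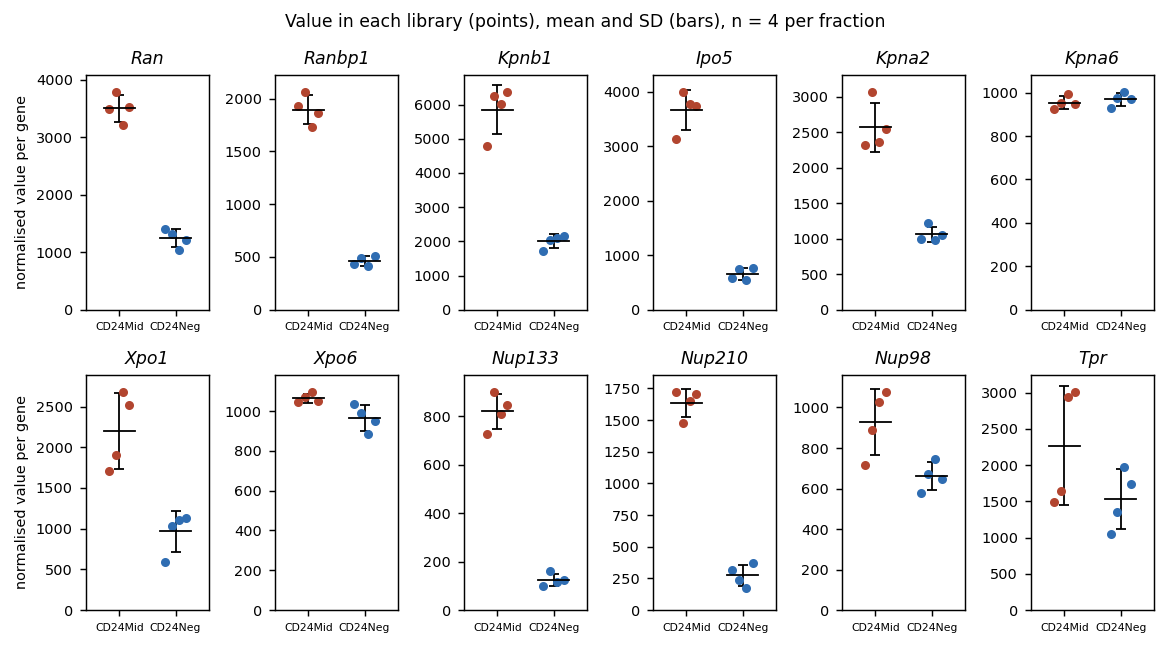
Deposited normalised value (vertical axis, starting at 0) of 12 genes in each library, with mean and SD as bars (n = 4 per fraction), CD24Mid left of CD24Neg. The fractions are separate for Ran, Ranbp1, Kpnb1, Ipo5, Kpna2, Xpo1, Nup133 and Nup210, close but separate for Xpo6, and overlapping for Kpna6, Nup98 and Tpr.

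The outer ring of the pore is built from the Y complex, a branched assembly that also sits at kinetochores during mitosis. All 7 of its genes that were taken by symbol were called higher in CD24Mid, with a median log2 fold change of 1.68. Sec13, a subunit whose symbol is not among those taken, was called lower (log2 fold change -0.62, adjusted p = 0.000333, limma). With scaling to nuclear-gene totals Sec13 was at -0.16 and not called. Its values are given below with the other gene lists. Nup133, at the stem of the Y, had 725, 898, 809 and 845 in CD24Mid, against 100.2, 159.6, 118 and 123 in CD24Neg. Nup85, in a short arm, had 1042, 1175, 959.6 and 995 in CD24Mid, against 142, 164, 136 and 224 in CD24Neg. Every CD24Mid library thus stood far above every CD24Neg library, and the log2 fold changes were 2.72 for Nup133 (SE 0.15, adjusted p = 3.72e-07, limma) and 2.67 for Nup85 (SE 0.16, adjusted p = 5.45e-07, limma). The changes within the complex were unequal. Nup43, a beta-propeller subunit of the short arm, had a log2 fold change of 2.36 and Nup37, its counterpart on the other arm, of 1.68. Nup160, at the arm that binds Nup37, had 1.36 and Nup107, the stem partner of Nup133, had 1.35. Seh1l, which the Y complex shares with a regulator of nutrient signalling at the lysosome, had the smallest of the 7 estimates, 1.0 (1409 ± 139 in CD24Mid and 706 ± 76.6 in CD24Neg, SD, n = 4 each). Nup37 was also the gene with the least spread in CD24Mid, 289.9 to 299, a coefficient of variation of 1.27%.

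All 5 genes of the inner ring, the scaffold against the membrane, were called higher in CD24Mid, against 34.3% of all tested genes. Their median log2 fold change was 1.86. Nup155, which touches the membrane, had 723, 798, 898 and 969 in CD24Mid, against 169, 195, 193 and 254 in CD24Neg. Nup93, the linker that holds the inner ring and the channel nucleoporins together, had 676, 779, 696 and 795 in CD24Mid, against 167, 221, 162 and 259.8 in CD24Neg. The lowest CD24Mid library of each gene was more than double its highest CD24Neg library, with log2 fold changes of 2.07 for Nup155 (SE 0.15, adjusted p = 1.27e-06, limma) and 1.88 for Nup93 (SE 0.16, adjusted p = 3.85e-06, limma). Nup205 and Nup188 are related large scaffold subunits that bind Nup93 in alternative complexes. Nup205 averaged 1609 ± 195 in CD24Mid and 447 ± 85.2 in CD24Neg (log2 fold change 1.86), and Nup188 averaged 1015 ± 73.4 in CD24Mid and 414 ± 47.6 in CD24Neg (log2 fold change 1.30; SD, n = 4 each). Nup35, which binds membrane and Nup155, had 212 ± 16.3 in CD24Mid and 95.4 ± 11.0 in CD24Neg (log2 fold change 1.15).

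Of the 4 genes of the membrane ring, 3 were called higher in CD24Mid, against 34.3% of all tested genes. Nup210, a membrane-spanning glycoprotein whose protein level differs between mouse cell types, had 1719.8, 1479, 1649.7 and 1705 in CD24Mid, against 314, 236, 177 and 368 in CD24Neg. Ndc1, an integral membrane anchor of the pore, had 757, 907, 1085 and 1081 in CD24Mid, against 133, 219.5, 164 and 251 in CD24Neg. Both were separate between fractions, with log2 fold changes of 2.63 for Nup210 (SE 0.20, adjusted p = 2.03e-06, limma) and 2.35 for Ndc1 (SE 0.20, adjusted p = 4.76e-06, limma). Pom121, the third anchor, averaged 1234 ± 104 in CD24Mid and 542 ± 39.4 in CD24Neg (SD, n = 4 each, log2 fold change 1.18). Of its exon bases, 11.9% are shared with Nsun5 on the opposite strand. Whether the counting used strand is not given in the sources used here. Other genes of the 51 share exon bases too. Ipo4 shares 55.3% with Gm49378 and Ranbp1 16.9% with Gm49776, both on the same strand, but neither partner has values here. Tnpo2 shares 10.6% with A230103J11Rik on the opposite strand. Nup210l, the paralog of Nup210 known from mouse testis, was near the level needed for testing. It had 18.6, 17.3, 29.5 and 24.0 in CD24Mid, against 28.0, 7.82, 32.4 and 44.0 in CD24Neg. These ranges overlap, and its log2 fold change of -0.12 had a 95% interval of -1.22 to 0.98 (adjusted p = 0.842, limma), so that a change of 2-fold in CD24Neg's favour lies inside the interval.

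Both genes of the central channel among the 51 were called higher in CD24Mid, against 34.3% of all tested genes. Their median log2 fold change was 0.75. Nup54, a repeat-bearing nucleoporin of the channel, had 419, 441, 489 and 491 in CD24Mid, against 204, 225, 216 and 264 in CD24Neg, with no overlap and a log2 fold change of 1.02 (SE 0.12, adjusted p = 2.97e-05, limma). Nup98, whose repeats help form the permeability barrier and which is made as a precursor together with the Y complex subunit Nup96, had 715, 887, 1029.6 and 1075 in CD24Mid, against 576, 670.5, 745 and 649 in CD24Neg. CD24Mid library 1 lay below CD24Neg library 6, and Nup98 was the 1 called gene among the 51 whose groups overlapped. Its log2 fold change was 0.48 (SE 0.14, adjusted p = 0.0121, limma), and without CD24Neg libraries 2 and 8, the libraries with the most lymphocyte transcripts, it was 0.35 with an adjusted p of 0.114. The channel nucleoporin Nup58 and the cytoplasmic nucleoporin Nup42 carry the symbols Nupl1 and Nupl2 in the annotation used and so are not counted among the 51. Nupl1 had 475, 564, 676 and 682 in CD24Mid, against 281, 388, 326 and 352 in CD24Neg (log2 fold change 0.82, adjusted p = 0.000627, limma). Nupl2 had 118, 114, 112 and 119.7 in CD24Mid, against 114, 69.9, 58.4 and 71.9 in CD24Neg (log2 fold change 0.60, adjusted p = 0.0266, limma), with CD24Neg library 2 inside the CD24Mid range.

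On the cytoplasmic face all 4 genes among the 51 were called higher in CD24Mid, against 34.3% of all tested genes. Their median log2 fold change was 0.70. Aaas, also called aladin, which is bound to the pore by Ndc1, had 321, 455, 348 and 349 in CD24Mid, against 90.3, 162, 106 and 133 in CD24Neg. Nup214, a filament nucleoporin that binds Xpo1, had 914, 1155, 969.6 and 1085 in CD24Mid, against 531, 733, 480.5 and 535 in CD24Neg. Neither gene overlapped between fractions, and the log2 fold changes were 1.6 for Aaas (SE 0.19, adjusted p = 4.34e-05, limma) and 0.87 for Nup214 (SE 0.14, adjusted p = 0.000325, limma). Rae1, which works in mRNA export and at the spindle, and Nup88, the partner of Nup214, had log2 fold changes of 0.53 and 0.52.

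In the nuclear basket 2 of 3 genes were called higher in CD24Mid, against 34.3% of all tested genes. Nup153, which anchors the basket, had 848, 1151, 1386 and 1344 in CD24Mid, against 492, 598, 574 and 604 in CD24Neg, without overlap (log2 fold change 1.04, SE 0.16, adjusted p = 0.000196, limma). Nup50, which speeds the release of cargo from importin alpha, had 1211, 1347, 1469 and 1349 in CD24Mid, against 801, 958, 960.2 and 857 in CD24Neg, again without overlap (log2 fold change 0.59, SE 0.10, adjusted p = 0.000442, limma). Tpr, the filament of the basket, had 1488, 1638, 2946 and 3007 in CD24Mid, against 1048, 1357, 1982 and 1745 in CD24Neg. Its CD24Mid libraries fell into a low pair (1 and 3), inside the CD24Neg range, and a high pair (5 and 7), above it. In CD24Neg, too, Tpr was lower in libraries 2 and 4 than in libraries 6 and 8. Its log2 fold change was 0.53 (95% interval -0.08 to 1.15, adjusted p = 0.108, limma), and without CD24Mid library 1 it was 0.72 with an adjusted p of 0.0407.

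Importin alpha genes encode the adaptors that recognise classical nuclear localisation signals and bind importin beta. Of the 5 measured genes 2 were called higher, where 34.3% of all tested genes were, the median log2 fold change was 0.04, and the genes fell into a group that moved and a group with estimates near 0. Kpna2, which encodes the importin alpha long linked to proliferating and stem cells in mouse, had 2319, 3068, 2362 and 2541 in CD24Mid, against 1001, 1220.5, 979.5 and 1049 in CD24Neg. Kpna3 had 483, 662, 817 and 787 in CD24Mid, against 279.7, 429.8, 432 and 450.2 in CD24Neg. Kpna2 was widely separated between fractions and Kpna3 narrowly, with CD24Mid library 1 just above the highest CD24Neg library. Their log2 fold changes were 1.27 (SE 0.12, adjusted p = 6.92e-06, limma) for Kpna2 and 0.78 (SE 0.20, adjusted p = 0.00564, limma) for Kpna3. Kpna6 had 924, 953, 992 and 948 in CD24Mid, against 928, 977, 1003 and 969 in CD24Neg, so that the fractions nearly coincided. The log2 fold change of Kpna6 was -0.02, and its 95% interval of -0.20 to 0.15 is narrower than those of Kpna4 (0.04, -0.36 to 0.44) and Kpna1 (-0.07, -0.38 to 0.24). Scaling to nuclear-gene totals moved the median of all genes to 0.48. It moved the estimates of Kpna6, Kpna4 and Kpna1 to 0.44, 0.50 and 0.40. All 5 genes were then called higher, against 51.9% of all tested genes.

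The promoters of Kpna2 and Kpna4 are shown as a pair from the importin alpha family, of which Kpna2 was called and Kpna4 was not. The 250 bases before the RefSeq start lie on GRCm38.p6 at chr11:106999526-106999775 for Kpna2 and chr3:69127093-69127342 for Kpna4, both on the minus strand, with the same 5 motifs in capitals.
Kpna2: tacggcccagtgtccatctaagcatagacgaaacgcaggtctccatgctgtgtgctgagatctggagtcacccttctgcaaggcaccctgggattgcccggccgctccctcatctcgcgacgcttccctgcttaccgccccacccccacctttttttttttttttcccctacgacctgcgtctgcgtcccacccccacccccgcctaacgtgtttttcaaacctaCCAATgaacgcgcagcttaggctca
Kpna4: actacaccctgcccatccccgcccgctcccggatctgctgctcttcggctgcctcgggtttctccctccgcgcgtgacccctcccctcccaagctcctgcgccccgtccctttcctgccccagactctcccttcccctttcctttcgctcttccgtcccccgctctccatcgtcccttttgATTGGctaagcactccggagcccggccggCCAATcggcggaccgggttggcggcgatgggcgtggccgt
The Kpna2 promoter holds 1 CCAAT, the Kpna4 promoter holds 1 on each strand, where ATTGG is the complement, and neither holds any of the other 4 motifs.

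The import receptors of the importin beta family carry cargo through the channel, with or without an adaptor. Of 11 genes 9 were called higher in CD24Mid, against 34.3% of all tested genes, with a median log2 fold change of 1.0. Ipo5, whose cargo includes ribosomal proteins and core histones, had 3135, 3999, 3781 and 3743 in CD24Mid, against 578, 744, 545 and 766 in CD24Neg. Ipo9, a carrier of histones and of actin, had 868, 1052, 1062 and 1050.1 in CD24Mid, against 293, 328, 283 and 380.1 in CD24Neg. Kpnb1, importin beta itself, had 4797, 6254, 6004 and 6370.2 in CD24Mid, against 1706, 2039, 2105 and 2170.2 in CD24Neg. CD24Mid library 1 was the lowest of its fraction for all 3 genes and still more than double any CD24Neg library. The log2 fold changes were 2.49 for Ipo5 (SE 0.14, adjusted p = 3.77e-07, limma), 1.65 for Ipo9 (SE 0.12, adjusted p = 1.57e-06, limma) and 1.54 for Kpnb1 (SE 0.12, adjusted p = 2.87e-06, limma).

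Ipo7, a receptor for ribosomal proteins and histone H1, spread more widely than these, from 1105 to 2366 in CD24Mid and from 365 to 739.7 in CD24Neg (log2 fold change 1.6, SE 0.28, adjusted p = 0.000488, limma). Ipo11 had a log2 fold change of 1.19, and Ipo4, a histone carrier, of 1.0. The transportins gave the smallest called estimates of the class. Tnpo3, which imports splicing factors rich in serine and arginine, had 0.72, Tnpo1, the receptor for many RNA-binding proteins, had 0.66, and its close relative Tnpo2 had 0.57. Without CD24Neg libraries 2 and 8 the estimate for Tnpo1 was 0.50, with an adjusted p of 0.0668 by limma. Ipo8, the paralog of Ipo7, had 1067, 1124, 1254 and 1281 in CD24Mid, against 1067, 1208, 1310.4 and 1037 in CD24Neg, which overlap throughout (log2 fold change 0.03, 95% interval -0.21 to 0.28, adjusted p = 0.789, limma). Ipo13, which carries cargo in both directions, had 443 to 583 in CD24Mid and 462 to 545 in CD24Neg (log2 fold change 0.05, 95% interval -0.20 to 0.29, adjusted p = 0.715, limma).

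Among the 6 export receptors 5 were called higher in CD24Mid, against 34.3% of all tested genes, with a median log2 fold change of 1.45. Xpo5, the exporter of microRNA precursors, had 649, 803, 837 and 829 in CD24Mid, against 208, 183, 206 and 195 in CD24Neg. Xpo4, which exports a translation factor and also imports some factors, had 246, 305, 485 and 529 in CD24Mid, against 75.3, 123, 139 and 136 in CD24Neg. Xpo1, the main exporter of proteins with leucine-rich signals, had 1714, 1907, 2676 and 2519.6 in CD24Mid, against 593, 1031, 1107 and 1131 in CD24Neg. For each gene all CD24Mid libraries exceeded all CD24Neg libraries, with a tight CD24Neg group for Xpo5 and a wide CD24Mid group for Xpo4 and Xpo1. The log2 fold changes were 1.97 for Xpo5 (SE 0.11, adjusted p = 4.3e-07, limma), 1.69 for Xpo4 (SE 0.28, adjusted p = 0.000379, limma) and 1.21 for Xpo1 (SE 0.22, adjusted p = 0.000764, limma). Cse1l, which returns importin alpha to the cytoplasm, averaged 1506 ± 265 in CD24Mid and 470.0 ± 84.4 in CD24Neg (SD, n = 4 each; log2 fold change 1.68).

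Xpo7 and Xpo6 stood apart from the other export receptors by the size of their estimates. Xpo7, an exportin with a broad range of cargo, averaged 1323 ± 111 in CD24Mid and 1039.8 ± 67.3 in CD24Neg (SD, n = 4 each), a log2 fold change of 0.35 (SE 0.10, adjusted p = 0.00878, limma) that was 0.30 with an adjusted p of 0.0703 without CD24Neg libraries 2 and 8. Xpo6, the exporter of actin, had 1044, 1073, 1095 and 1049 in CD24Mid, against 1037, 989.6, 887 and 949 in CD24Neg. The groups did not overlap, but the lowest CD24Mid library lay close to the highest CD24Neg library, and the log2 fold change of 0.14 (95% interval -0.04 to 0.33) had an adjusted p of 0.153 by limma.

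Ratios between related genes within a library do not depend on how libraries are scaled, and 6 such pairs were compared with an exact two-sided permutation test, for which 0.0286 is the smallest p that 4 libraries against 4 allow. The log2 ratio of Kpna2 to Kpna1 was 1.92, 2.04, 1.45 and 1.53 in CD24Mid, against 0.48, 0.48, 0.10 and 0.53 in CD24Neg, a difference of 1.34. The log2 ratio of Ipo7 to Ipo8 was 0.05, 0.57, 0.91 and 0.82 in CD24Mid, against -1.54, -0.91, -0.82 and -0.64 in CD24Neg, a difference of 1.57. Ipo7 thus exceeded Ipo8 in value in every CD24Mid library and was below it in every CD24Neg library. The ratio of Kpna3 to Kpna4 differed by 0.75 and that of Nup205 to Nup188 by 0.56. In each of these 4 pairs all 4 CD24Mid libraries lay above all CD24Neg libraries (exact permutation p = 0.0286, adjusted over the 6 pairs p = 0.0429). The ratio of Kpna6 to Kpna1 differed by 0.05 (exact permutation p = 0.771, adjusted p = 0.771) and that of Tnpo2 to Tnpo1 by -0.09 (exact permutation p = 0.6, adjusted p = 0.72), and their libraries overlapped. With 1 library left out, the 4 differences kept their direction but the design no longer reaches an adjusted p under 0.05.

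**Figure D3:**
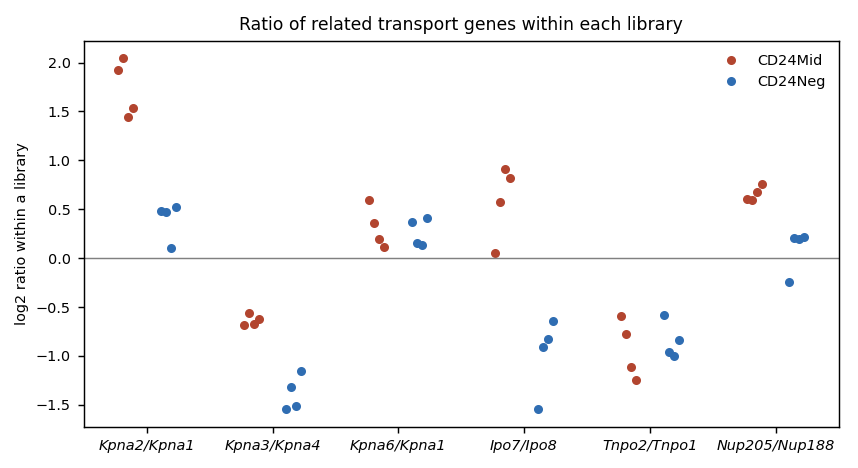
Log2 ratio of the values of 6 related gene pairs within each library (vertical axis), CD24Mid points left of CD24Neg points. The fractions are separate for Kpna2/Kpna1, Kpna3/Kpna4, Ipo7/Ipo8 and Nup205/Nup188 and overlap for Kpna6/Kpna1 and Tnpo2/Tnpo1.

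Levels were compared between genes as value per kilobase of exon. Exon length was that of all annotated exons of a gene together, 2.87 kb for Kpna2 and 19.0 kb for Xpo7. Ranks and shares between genes therefore depend on which exons are annotated. On this scale Ran was the most abundant of the 51 genes in both fractions, 1323 per kb in CD24Mid and 471 per kb in CD24Neg. Ranbp1 came next in CD24Mid, at 1137 per kb, followed by Kpna2 (895 per kb) and Kpnb1 (889 per kb), which did not differ beyond their spread of 120 and 109.6 per kb (SD, n = 4 each). In CD24Neg the order was Ran, Kpna2 (369.8 per kb), Kpnb1 (304 per kb) and Ranbp1 (276 per kb). Among the Y complex and inner ring genes, levels reached from 62.9 per kb (Nup35) to 342 per kb (Seh1l) in CD24Mid and from 16.4 per kb (Nup43) to 171 per kb (Seh1l) in CD24Neg. Nup210l was the lowest gene, at 3.91 per kb in CD24Mid and 4.91 per kb in CD24Neg.

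The makeup of each receptor class was described from the same levels per kb. Kpna2 held 63.6% ± 4.63 of the summed importin alpha level in CD24Mid and 45.3% ± 3.27 in CD24Neg (SD, n = 4 each). Kpna6 held 10.1% ± 0.955 in CD24Mid and 17.7% ± 1.12 in CD24Neg, Kpna1 held 6.48% ± 0.833 in CD24Mid and 11.7% ± 0.936 in CD24Neg, and Kpna3 held 11.3% in either fraction. Kpna2 held the largest share in every library, and its 58.4 to 68.4% in the CD24Mid libraries lay above its 40.8 to 47.9% in the CD24Neg libraries. Among the import receptors, Ipo5 held 22.5% ± 0.957 in CD24Mid and 9.64% ± 1.12 in CD24Neg, and Kpnb1 held 32.6% ± 1.05 in CD24Mid and 26.8% ± 1.42 in CD24Neg. Ipo8 held 2.76% ± 0.177 in CD24Mid and 6.48% ± 0.801 in CD24Neg, and Ipo13 held 4.64% ± 0.797 in CD24Mid and 10.7% ± 1.19 in CD24Neg. Among the export receptors Xpo1 kept about the same share, 34.9% ± 2.43 in CD24Mid and 35.3% ± 5.53 in CD24Neg, while Cse1l held 32.6% ± 1.62 in CD24Mid and 23.7% ± 2.06 in CD24Neg. The summed level was 1408 per kb in CD24Mid and 817 per kb in CD24Neg for importin alpha, 2720.4 per kb in CD24Mid and 1135 per kb in CD24Neg for the import receptors, and 875 per kb in CD24Mid and 375 per kb in CD24Neg for the export receptors. These shares were not tested.

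**Figure D4:**
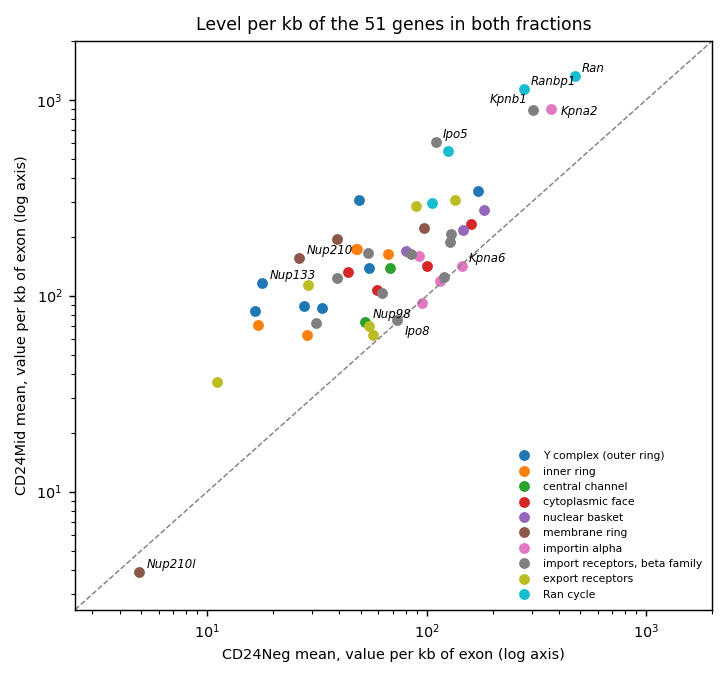
Mean value per kb of exon in CD24Mid (vertical, log axis) against CD24Neg (horizontal, log axis) for the 51 genes, coloured by role, with equality dashed. Ran (1323 per kb in CD24Mid, 471 per kb in CD24Neg) is at the top right, Nup210l (3.91 and 4.91 per kb, same order) at the bottom left, and most points lie above the line.

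Within a fraction the genes varied by a median coefficient of variation of 9.86% in CD24Mid (range 1.27 to 36.1%) and 12.7% in CD24Neg (range 3.20 to 53.7%). CD24Mid library 1 was the lowest of its fraction for 40 of the 51 genes, and CD24Neg library 2 for 26. The widest CD24Mid groups were those of Tpr (36.1%), Xpo4 (35.0%) and Ipo7 (31.5%), each with libraries 5 and 7 above libraries 1 and 3. In CD24Neg each of these genes had libraries 6 and 8 above libraries 2 and 4. Across the 51 genes the coefficient of variation in CD24Mid had a Pearson r of 0.27 with log2 exon length. Its Spearman rho with exon length was 0.28. In CD24Neg the same r was 0.00 and the same rho 0.04. This is a description across genes that share the same 8 libraries.

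As a share of all nuclear-gene value, the 51 genes together held 0.510%, 0.614%, 0.655% and 0.671% in the CD24Mid libraries 1, 3, 5 and 7, against 0.183%, 0.205%, 0.190% and 0.221% in the CD24Neg libraries 2, 4, 6 and 8. The 7 crypt and proliferation markers held 0.506%, 0.677%, 0.677% and 0.746% in the same CD24Mid libraries, against 0.0222%, 0.0528%, 0.0270% and 0.0581% in the same CD24Neg libraries. In CD24Mid library 1 was lowest and library 7 highest in both measures, and in CD24Neg the libraries ranked 2, 6, 4 and 8 in both. The part of these markers in the differences between libraries was not tested.

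**Figure D5:**
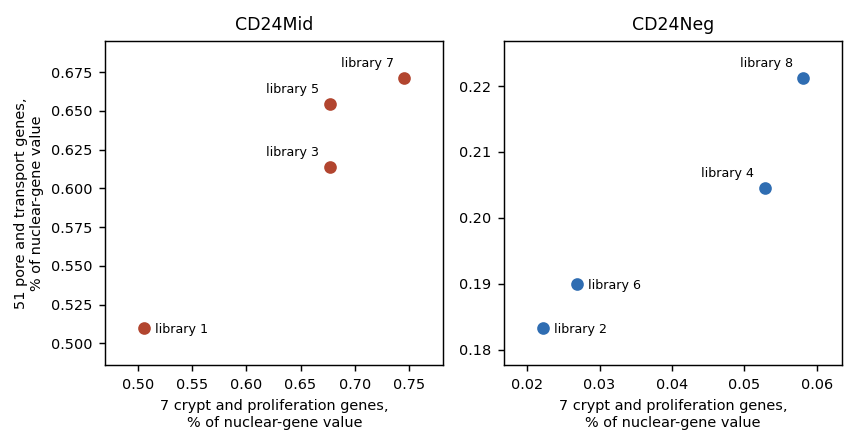
Share of the nuclear-gene value held by the 51 pore and transport genes (vertical axis, %) against that held by the 7 crypt and proliferation markers (horizontal axis, %) in each library, CD24Mid left and CD24Neg right, with different axis ranges that do not start at 0. Library 1 is the lowest CD24Mid library in both (0.510% and 0.506%) and library 8 the highest CD24Neg library in both (0.221% and 0.0581%).

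Promoters were found in the RefSeq table for 40 of the 51 genes, 47 promoters in all, and 5 motifs were counted in the 250 bases before the start on both strands. GCGCATGCG, the type bound by the factor NRF1, was in 4 of the 47 (8.51%; Nup107, Nup50, Ran and Xpo5), against 1.45% of all 32851 promoters and 2.90% of the 12381 promoters of tested genes. CACGTG, an E-box, was in 6 (12.8%; Ipo7, Nup188, Nup54, Nup93, Ran and Tnpo2), against 6.02% of all promoters and 8.25% of those of tested genes. TTTGGCG and TTTCCCGC, both E2F types, were each in 2 of the 47 (4.26%), against 1.26% and 0.895% of all promoters and 1.98% and 1.65% of those of tested genes. CCAAT was in 20 (42.6%), against 33.8% of all promoters and 35.4% of those of tested genes. Ranbp1, shown above, was the only promoter of the set with both E2F types. Of the 47 promoters 42 belong to genes called higher in CD24Mid, so that the motifs cannot be compared between called and uncalled genes, and the shares were not tested.

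The other gene lists of the same machinery hold none of the 51 genes. Their counts stand beside 34.3% of all tested genes called higher and 34.0% called lower, or 51.9% called higher with scaling to nuclear-gene totals, and nothing particular to a list is read from them. Of 12 tested pore and transport factors outside the symbol rule, 7 were called higher and 2 lower in CD24Mid, with a median log2 fold change of 0.49, and 10 and 0 with scaling to nuclear-gene totals. Rangrf, a small Ran-binding factor, averaged 615 ± 100.3 in CD24Mid and 91.8 ± 22.1 in CD24Neg (log2 fold change 2.76, adjusted p = 1.05e-06, limma). Nutf2, which returns Ran to the nucleus, averaged 146 ± 32.1 in CD24Mid and 38.1 ± 14.8 in CD24Neg (SD, n = 4 each; log2 fold change 2.0, adjusted p = 0.000266, limma). Sec13 is a subunit of the Y complex and also of the COPII coat of secretory vesicles. It ran opposite to the other Y complex genes, with 2036, 1825, 1536 and 1828 in CD24Mid, against 2869, 2703, 2744 and 2764 in CD24Neg. No library overlapped (log2 fold change -0.62, adjusted p = 0.000333, limma), and with scaling to nuclear-gene totals it was -0.16 with an adjusted p of 0.173. Ranbp6, a relative of Ipo5, had a log2 fold change of -0.68 (adjusted p = 0.0259, limma), which was -0.21 with an adjusted p of 0.425 under the same scaling. Ranbp2, the large filament nucleoporin that holds Rangap1 at the pore, was picked after its values were seen: it had 1161, 1245, 2399.9 and 2542 in CD24Mid, against 899.6, 1417, 1732 and 1688 in CD24Neg. As for Tpr, CD24Mid libraries 1 and 3 lay inside the CD24Neg range and libraries 5 and 7 above it (log2 fold change 0.31, adjusted p = 0.377, limma). In CD24Neg, libraries 2 and 4 were below libraries 6 and 8 for both genes.

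Of 16 tested mRNA export genes 11 were called higher and 2 lower in CD24Mid (median log2 fold change 0.57), and 14 and 0 with scaling to nuclear-gene totals. Nxt1, the small partner of the mRNA export receptor, had a log2 fold change of 1.98 (adjusted p = 9.69e-06, limma) and Alyref, the adaptor that loads it, of 1.51 (adjusted p = 1.37e-06, limma). Nxf1, the receptor itself, was 936 ± 23.6 in CD24Mid and 1438 ± 211 in CD24Neg (SD, n = 4 each), a log2 fold change of -0.61 (adjusted p = 0.000614, limma). Mcm3ap, the scaffold of an export complex at the pore, had -0.50 (adjusted p = 0.00127, limma). With scaling to nuclear-gene totals neither was called, at -0.14 for Nxf1 and -0.04 for Mcm3ap. The receptor Nxf1 and its partner Nxt1 therefore had estimates of opposite sign under both scalings.

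Of 15 tested genes of the nuclear lamina and envelope 8 were called higher and 4 lower in CD24Mid (median log2 fold change 0.30), and 11 and 2 with scaling to nuclear-gene totals. Under that scaling Lemd2, an inner membrane protein, turned to 0.17, against -0.30 with the median-ratio centring, and Tor1aip1, an activator of torsin, went uncalled at -0.16. Lmnb1, a B-type lamin, had 2813 ± 204 in CD24Mid and 483 ± 122 in CD24Neg (log2 fold change 2.57, adjusted p = 7.52e-07, limma), and Tmpo, a lamin-binding protein, had 4744 ± 686 in CD24Mid and 898 ± 179.7 in CD24Neg (SD, n = 4 each; log2 fold change 2.41, adjusted p = 1.17e-06, limma). Tor1aip2 and Tor1a, an activator of torsin and torsin itself, had log2 fold changes of -1.41 (adjusted p = 9.03e-06, limma) and -1.11 (adjusted p = 2.02e-05, limma), and both were still called lower with scaling to nuclear-gene totals. Of 10 tested genes of the SUMO cycle, which modifies Rangap1 at the pore, 6 were called higher and 0 lower (median log2 fold change 0.55), and 8 and 0 with scaling to nuclear-gene totals, led by the protease Senp1 (1.36, adjusted p = 5.64e-06, limma) and by Sumo2 (1.25, adjusted p = 6.98e-06, limma).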

How the data were processed

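The 8 libraries, 4 of CD24Mid and 4 of CD24Neg, were made from total RNA of sorted epithelial cells with a TruSeq kit for RNA, per the labels' protocols. The signal values deposited by the authors are normalised expression estimates per gene for 23318 Ensembl genes, per the file headers. Bowtie 0.12.8 and the build NCBIM37 are named in the submitters' processing notes, while for the estimator's version, the annotation release and the strand setting nothing is stated in the sources used here. Low values lay on even steps. The lowest 8 of them put 1 read at 0.583 to 0.697 in CD24Mid and 1.07 to 1.77 in CD24Neg, so that low values were less precise in CD24Neg. Without mitochondrially encoded genes this gave 15.9 to 18.0 M reads in CD24Mid and 8.09 to 14.7 M reads in CD24Neg, and 3011 to 3258 genes in CD24Mid and 4504 to 5085 genes in CD24Neg were listed at 0. Whole reads could not be recovered, and no count model was used.

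The 12906 genes at 10 or more in 4 or more libraries were fitted, after centring by the median ratio, as log2(value + 0.5) in limma 3.58.1 (R 4.3.3; trend, robust variance, 6 residual degrees of freedom), with Benjamini-Hochberg adjustment and a threshold of 0.05. Fold changes on this scale understate the change of low genes. Means and values per library are the deposited values, and the fold change of the fit is that of mean log2 values. The design had a count test in case the values were counts, which they are not. Pair ratios were tested by exact two-sided permutation in scipy 1.17.1. Symbols and exon lengths came from GENCODE M21 (21223 of 23318 identifiers matched) and promoters from RefSeq on GRCm38.p6, with no coordinate taken from the NCBIM37 files. The planned count of repeats in protein sequences was not run, since no protein table was used here.

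The 51 genes, their roles, the other gene lists and the markers were chosen with earlier results of these data known. All 51 genes may be named. Values in every library are given for the 2 called genes with the largest change in each role, for Kpna2, Kpnb1, Xpo1, Ran, Nup153 and Nup98, and, chosen after their values were seen, for uncalled genes and for Sec13 and Ranbp2. Of each other list the 2 called genes with the largest change in each direction are named. Alternatives were quantile normalization, no centring, scaling to totals (leaving out the top 20 genes, or of nuclear genes alone), no filter or a level of 10 in all 8 libraries, pseudocounts of 0.1 and 1, limma without trend and robust variance, a test against a fold change of 1.5, and leaving out each library or CD24Neg libraries 2 and 8.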

Additional observations from a re-analysis of the deposited data

Results flagged for a closer look

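A library far from the other 3 of its fraction was looked for in all 51 genes, 102 groups in all, and 2 were found (1.96%), where chance alone gives about 1 in 20. Ipo9, the carrier of histones and actin, was at 868 in CD24Mid library 1, against 1050.1 to 1062 in the other CD24Mid libraries, a gap of 0.939 of the range. Kpna3, an importin alpha gene, was at 279.7 in CD24Neg library 2, against 429.8 to 450.2 in the other CD24Neg libraries, a gap of 0.880 of the range. CD24Mid library 1 was the lowest of its fraction for 40 of the 51 genes, and CD24Neg library 2 for 26.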

How the results depend on the processing

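No gene of the 51 was called lower in CD24Mid under any of the 19 alternatives. The number called higher, 43, was 47 with quantile normalization, 50 with either scaling to totals and 32 against a fold change of 1.5. It was 40 without CD24Neg libraries 2 and 8, 43 to 44 with 1 library left out, and 43 otherwise. Of all tested genes, 35.6% were called higher with quantile normalization and 18.8% against a fold change of 1.5. The share was 50.3% with totals that leave out the top 20 genes, 51.9% with nuclear-gene totals and 32.9% without CD24Neg libraries 2 and 8. Over all tested genes, scaling to totals that leave out the top 20 genes gave 6497 higher and 2842 lower and moved the median to 0.44, scaling to nuclear-gene totals gave 6695 and 2723, and the test against a fold change of 1.5 gave 2430 and 2360. Importin alpha genes called higher were 5 under either scaling to totals. The central channel had 1 without CD24Neg libraries 2 and 8.

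Among the 51 genes and 6 pairs, signs turned under these alternatives only where nothing had been called. With quantile normalization, totals without the top 20 and nuclear totals, in that order, Kpna1 was 0.14, 0.36 and 0.40 and Kpna6 was 0.24, 0.40 and 0.44. Nup210l was 0.30 and 0.34 under the scalings to totals. Without CD24Neg libraries 2 and 8, Ipo13 was -0.036, Ipo8 -0.12, Kpna4 -0.16, Nup210l 0.41 and the log2 ratio difference of Tnpo2 to Tnpo1 0.045.

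With 1 library left out, log2 fold changes ranged over -0.0023 to 0.13 for Ipo13, -0.022 to 0.093 for Ipo8, -0.14 to 0.045 for Kpna1, -0.084 to 0.19 for Kpna4 and -0.64 to 0.17 for Nup210l. Log2 ratio differences ranged over 1.38 to 1.75 for Ipo7/Ipo8, 1.24 to 1.44 for Kpna2/Kpna1, 0.69 to 0.82 for Kpna3/Kpna4, 0.45 to 0.60 for Nup205/Nup188, -0.048 to 0.11 for Kpna6/Kpna1 and -0.20 to 0.014 for Tnpo2/Tnpo1. Without CD24Neg libraries 2 and 8 they were 1.45 for Ipo7/Ipo8, 1.45 for Kpna2/Kpna1, 0.78 for Kpna3/Kpna4 and 0.45 for Nup205/Nup188. The adjusted p of the first 4 was then 0.0857 with 1 library left out and 0.2 with both, since fewer libraries raise the smallest p the exact test can give.

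No paired analysis was possible because the CD24Mid and CD24Neg libraries share no replicate number, and the labels do not say that adjacent title numbers mark a shared sort. Nup210l was at 7.82 to 44.0 per library, where 1 read was worth up to 1.77 in CD24Neg. The cause of these shifts was not tested.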
